A study of Mus musculus with 4 samples.

Results

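The 33 genes described here encode the enzymes and transporters that build phosphatidylcholine and the other glycerophospholipids, and were taken by symbol from the 55416 gene IDs of the deposited count table. All 33 symbols matched 1 gene ID each, and 32 passed the filter on low counts. RNA came from myeloid-derived suppressor cells, the neutrophil-like and monocyte-like cells that build up in tumor-bearing hosts and hold back T cells, which were flow-sorted from the ascitic fluid of mice carrying EL4, a mouse T cell lymphoma line, 14 days after injection. Of the 4 libraries, 2 came from wild-type (WT) mice and 2 from mice knocked out for Sphk2 (Sphk2 KO), which encodes sphingosine kinase 2. Mice of both genotypes carried the tumor, and no tumor-free group was analysed here. Not given in the sources used here: strain, sex and age of the mice, the knockout allele, the sorting markers, and whether a library held 1 mouse or a pool. The p-values therefore reflect the spread among these libraries alone, which may be technical. The comparison asks whether the loss of sphingosine kinase 2 goes with altered transcripts of phosphatidylcholine synthesis, since the study's title names phosphatidylcholine levels and acetyl-CoA carboxylase.

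Phosphatidylcholine, the main phospholipid of mammalian membranes, is made from choline by the Kennedy pathway. Choline enters the cell, choline kinase phosphorylates it, a cytidylyl transferase turns it into CDP-choline, and a final transferase joins it to diacylglycerol. Diacylglycerol comes from glycerol 3-phosphate, which is acylated to phosphatidic acid and then dephosphorylated by lipins. Phosphatidic acid also feeds CDP-diacylglycerol, the precursor of cardiolipin, the lipid of the inner mitochondrial membrane. Lysophospholipid acyltransferases exchange the fatty acids of finished phospholipids, in the remodelling known as the Lands cycle. In liver a methyltransferase makes phosphatidylcholine from phosphatidylethanolamine as a second route.

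Levels are given as CPM, the counts of a gene scaled to a common library size after TMM normalization, and, where genes are compared with each other, as CPM per kilobase of annotated exon. The libraries held 14087613 to 24685576 counts. Sphk2, the deleted gene, lay at 54.9 and 53.7 CPM in WT and at 4.07 and 4.45 CPM in Sphk2 KO, a difference of -3.66 on the log2 scale (SE 0.186, edgeR adjusted p = 0.000127). Neutrophil markers were abundant in all 4 libraries, with S100a9 between 5243 and 11991 CPM. The summed level of 11 neutrophil markers was 22999 and 30239 CPM in WT and 35988 and 41394 CPM in Sphk2 KO. That of 8 monocyte markers was 2580 and 1687 CPM in WT and 1635 and 1073 CPM in Sphk2 KO. The lists of 8 T cell and EL4 genes (50.8 and 43.1 against 28.4 and 23.7 CPM), 7 erythroid genes (65.1 and 194.4 against 332.0 and 581.1 CPM) and 6 B cell genes (1162 and 1002 against 1109 and 523.8 CPM) also differed between libraries. Of the 62 markers in 9 lists, 57 were tested and 0 called (edgeR, 0.109% of all tested genes), and none had 0 counts over the 4 libraries. At an unadjusted edgeR p under 0.05, 10 of the 57 were higher, against 3.06% of all tested genes. Another 16, or 28.1%, were lower, against 7.47%. In bulk RNA a change in the number of cells of a type and a change in RNA per cell cannot be told apart.

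None of the 32 tested genes was called in Sphk2 KO against WT (edgeR quasi-likelihood test, Benjamini-Hochberg adjusted p under 0.05 over all 16566 genes tested, of which 0.109% were called). The smallest adjusted p was 0.434. At an unadjusted p under 0.05, 2 genes were lower in Sphk2 KO (Gpam and Crls1), against 7.47% of all tested genes, and 0 were higher, against 3.06%. DESeq2 also called 0 of them (0.476% of 15964 genes with an adjusted p), and limma-voom called 0 (0.115% of all tested genes). With DESeq2, 1 had an unadjusted p under 0.05, a count given here without its share over all genes. When Sphk2 KO replicate 1 was left out, 1 gene (Gpam) was called, where 3.57% of all 17880 genes then tested were.

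Log2 fold changes, Sphk2 KO minus WT, ran from -1.07 (Gpam) to 0.35 (Slc44a1), with 17 above 0 and 15 below. Their median was 0.03, and the median of all tested genes was 0.00. In absolute size the median was 0.18 for these genes and 0.25 for all tested genes, with median standard errors (SE) of 0.207 and 0.279, so the lower median came with a lower error. The 95% interval of the fold change stayed within 2-fold in both directions for 24 of the 32 genes. It included a 2-fold lower level in 8 genes and a 2-fold higher level in 0, and a 1.5-fold lower level in 10 and a 1.5-fold higher one in 13. With library size alone as the scaling, the values of all tested genes shifted by a median of -0.17, and 8 of the 32 genes then lay above 0 and 24 below.

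**Figure D1:**
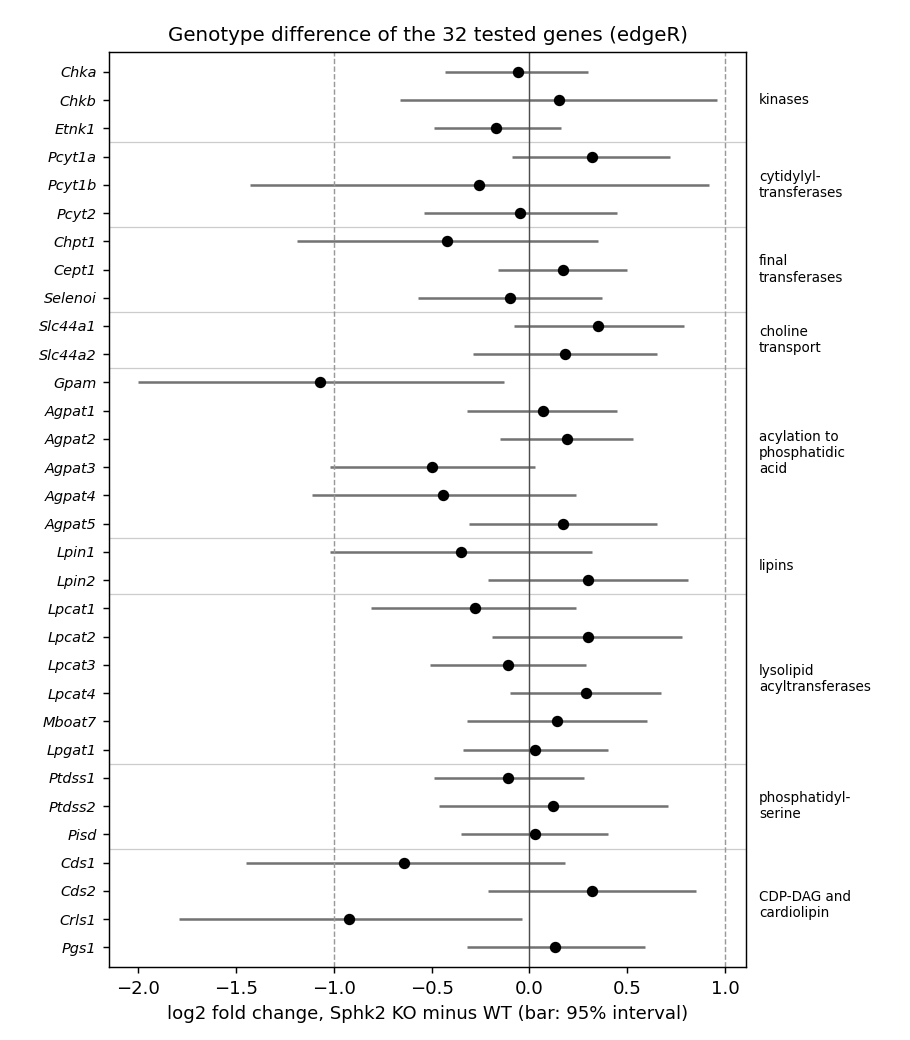
Log2 fold change of each of the 32 tested genes (Sphk2 KO minus WT, x axis) by role in the pathway (y axis), with points for the edgeR estimate and bars for its 95% interval. All estimates above 0 are at most 0.35, the lowest are Gpam at -1.07 and Crls1 at -0.92, and dashed lines mark 2-fold in either direction.

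Both Sphk2 KO libraries lay above both WT libraries in 6 genes, against 20.4% of all tested genes, and below both in 7, against 22.7%. The 6 genes were Cds2, Slc44a2, Agpat2, Cept1, Pcyt1a and Lpcat4. The 7 were Etnk1, Ptdss1, Agpat3, Crls1, Cds1, Lpin1 and Gpam. These numbers depend on the libraries and the scaling. With 1 library left out, 8 to 13 genes were above and 10 to 14 below, where fewer libraries make separate groups more frequent. With library size alone 2 were above and 12 below, and 29.9% of all tested genes then had a log2 fold change above 0. The shares of all tested genes with separate groups in these settings are not given here. The WT replicates differed from each other by more than the genotype means did in 21 of the 32 genes (57.5% of all tested genes), and the Sphk2 KO replicates in 14 (50.5%). A difference of 2 single libraries varies more than a difference between means of 2 libraries. These counts therefore do not measure a genotype effect against the replicate spread.

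In level, the 32 tested genes spanned a 610-fold range in mean CPM per kilobase. Lpcat2 stood first, with 67.8 and 93.5 CPM per kilobase in WT and 90.6 and 108 in Sphk2 KO. Cds2 (52.6 to 82.3) and Slc44a2 (50.5 to 64.8) followed, then Pgs1 (37.2 to 51.0) and Mboat7 (28.2 to 38.2). The order of these 5 genes was the same within each of the 4 libraries. Their ranges over the libraries overlapped between neighbours, while the range of Lpcat2 lay above that of Slc44a2. The order depends on the exon length used, 8677 bases for Slc44a2 and 3388 for Lpcat2. In CPM without length, Slc44a2 (438.1 to 562.3) lay above Lpcat2 (229.9 to 364.5). At the other end Cds1, Lpin1, Gpam, Chpt1 and Pcyt1b each had a mean under 1 CPM per kilobase. Pemt, the methyltransferase of the liver route, had only 2 to 4 counts in any library. A floor of 3 counts corresponds to 0.122 to 0.213 CPM by library size, before TMM scaling. Pemt did not pass the filter and no fold is given for it.

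**Figure D2:**
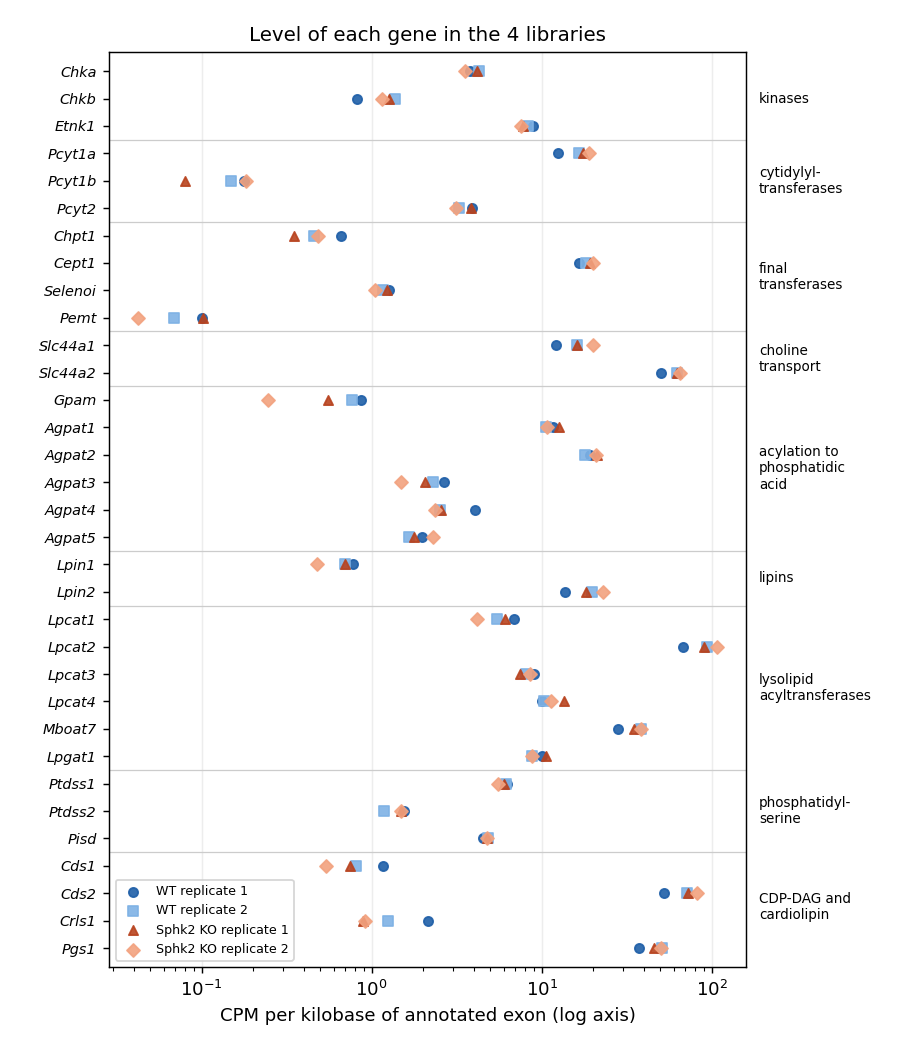
Level of each of the 33 genes by role (y axis) in CPM per kilobase of annotated exon (x axis, log), with a symbol for each library. Lpcat2, Cds2 and Slc44a2 lie highest and Pemt and Pcyt1b lowest. The spread over the 4 libraries of a gene is small beside the whole range of the genes, but neighbouring genes often overlap.

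In 3 enzyme families a single gene held nearly all of the transcripts. Of the summed level per kilobase, Pcyt1a made up 98.6% and 99.1% of the CTP:phosphocholine cytidylyl transferases in WT and 99.5% and 99.0% in Sphk2 KO. Cds2 made up 97.8% to 99.3% of the CDP-diacylglycerol synthases, and Lpin2 94.6% to 98.0% of the listed lipins. Cept1, which uses both choline and ethanolamine substrates, held 89.7% to 93.0% of the final transferases, above the choline-specific Chpt1 and the ethanolamine-specific Selenoi. Slc44a2 held 76.4% to 80.6% of the choline transporters, Ptdss1 78.9% to 84.0% of the phosphatidylserine synthases, Chka 75.6% to 82.4% of the choline kinases and Lpcat2 72.2% to 81.7% of the 4 Lpcat genes. The family of AGPAT enzymes was the most divided, with Agpat2 at 48.5% to 55.5% and Agpat1 at 28.2% to 31.4%. The leading gene of each family was the same in all 4 libraries.

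**Figure D3:**
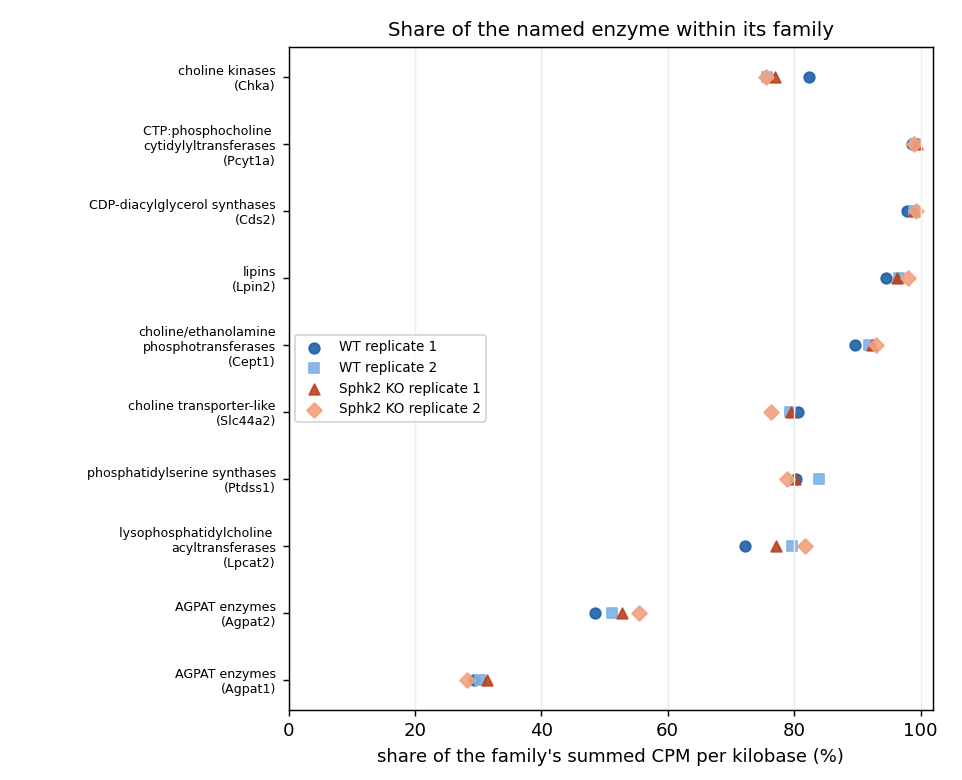
Share of the named enzyme in the summed CPM per kilobase of its family (x axis, %), by family (y axis), with a symbol for each library. The shares of Pcyt1a, Cds2 and Lpin2 exceed 94% in every library, and those of Agpat2 and Agpat1 lie near 50% and 30%.

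The promoters of 3 pairs in which 1 gene held over 94% of the level are shown, chosen after the values were seen, as windows from 250 bases before to 50 bases after the most upstream start of each gene in RefSeq (build GRCm38.p6), on the strand of the gene and with CG dinucleotides in capitals. Pcyt1a lies at chr16:32430671-32430970 (plus strand) and Pcyt1b at chrX:93654613-93654912 (plus strand). Lpin2 lies at chr17:71183282-71183581 (plus strand) and Lpin1 at chr12:16610917-16611216 (minus strand). Cds2 lies at chr2:132262898-132263197 (plus strand) and Cds1 at chr5:101764880-101765179 (plus strand).
Pcyt1a: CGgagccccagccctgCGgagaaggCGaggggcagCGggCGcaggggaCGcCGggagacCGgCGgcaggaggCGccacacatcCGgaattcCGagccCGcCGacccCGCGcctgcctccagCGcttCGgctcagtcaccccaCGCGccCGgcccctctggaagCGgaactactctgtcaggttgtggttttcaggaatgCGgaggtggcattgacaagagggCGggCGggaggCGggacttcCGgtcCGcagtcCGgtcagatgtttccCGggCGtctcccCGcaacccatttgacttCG
Pcyt1b: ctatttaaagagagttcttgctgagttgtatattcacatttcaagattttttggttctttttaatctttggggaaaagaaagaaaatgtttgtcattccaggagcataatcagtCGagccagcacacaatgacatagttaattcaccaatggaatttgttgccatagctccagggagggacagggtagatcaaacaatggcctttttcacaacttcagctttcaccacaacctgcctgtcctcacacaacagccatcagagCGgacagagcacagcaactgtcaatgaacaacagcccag
Lpin2: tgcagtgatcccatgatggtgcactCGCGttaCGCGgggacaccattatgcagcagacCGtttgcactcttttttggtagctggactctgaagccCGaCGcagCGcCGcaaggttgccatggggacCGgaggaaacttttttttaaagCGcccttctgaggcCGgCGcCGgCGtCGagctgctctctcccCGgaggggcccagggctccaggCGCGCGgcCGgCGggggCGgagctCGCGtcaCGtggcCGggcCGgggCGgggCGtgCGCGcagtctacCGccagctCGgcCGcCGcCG
Lpin1: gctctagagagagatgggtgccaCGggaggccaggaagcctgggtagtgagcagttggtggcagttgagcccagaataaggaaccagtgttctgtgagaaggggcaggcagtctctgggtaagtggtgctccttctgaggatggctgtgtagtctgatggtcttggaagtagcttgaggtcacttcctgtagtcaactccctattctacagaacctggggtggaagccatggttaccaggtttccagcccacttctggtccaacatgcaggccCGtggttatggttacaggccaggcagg
Cds2: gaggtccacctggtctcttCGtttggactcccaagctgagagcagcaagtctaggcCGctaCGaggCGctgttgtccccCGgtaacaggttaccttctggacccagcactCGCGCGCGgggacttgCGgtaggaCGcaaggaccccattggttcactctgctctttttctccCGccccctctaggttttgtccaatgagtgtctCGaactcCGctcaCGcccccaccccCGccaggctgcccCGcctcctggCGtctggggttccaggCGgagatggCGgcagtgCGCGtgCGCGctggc
Cds1: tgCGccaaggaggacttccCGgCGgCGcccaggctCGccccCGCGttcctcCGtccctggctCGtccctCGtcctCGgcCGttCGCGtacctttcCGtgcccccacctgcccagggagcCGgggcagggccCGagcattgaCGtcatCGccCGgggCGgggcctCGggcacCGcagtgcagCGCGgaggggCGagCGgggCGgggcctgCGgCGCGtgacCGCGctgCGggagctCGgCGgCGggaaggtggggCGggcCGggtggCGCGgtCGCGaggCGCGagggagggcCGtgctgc

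The windows of the abundant Pcyt1a and Lpin2 held 33 and 37 CG dinucleotides, and those of their scarce partners 2 each. In the third pair the order was opposite, with 24 in the abundant Cds2 and 46 in the scarce Cds1. The choice of start matters: all starts of Pcyt1a gave 18 to 33, those of Pcyt1b 2 to 9, those of Lpin2 4 to 54 and those of Cds2 4 to 24. Windows were found for 30 of the 33 genes, and 20 of them held 20 or more CG dinucleotides, against 26.5% of all 32851 windows. The shares are not of like sets. The 30 are 1 window per gene, while all windows include several for some genes and were not limited to genes expressed here.  Over the 30 genes Spearman's rho between the CG count and the level per kilobase was 0.30, or 0.27 with the window nearest the principal start, both as descriptions, and the first rule was taken after both were seen. The Pcyt1a window also held TCACCCCAC, the letters of a sterol regulatory element searched on both strands, whose last base is the C of a capital CG. It was the only 1 of the 30 windows to hold them, against 0.551% of all. Such a match is a description of the letters only.

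Choline enters through transporter-like proteins of the SLC44 family. Slc44a2, the more abundant, lay at 438.1 and 540.6 CPM in WT and 544.9 and 562.3 CPM in Sphk2 KO. Both Sphk2 KO values were above both WT values, although WT replicate 2 and Sphk2 KO replicate 1 nearly coincided. The difference was smaller than its error, at a log2 fold change of 0.18 (SE 0.205, edgeR adjusted p = 0.758). Slc44a1 had the highest fold change among these genes, at 84.5 and 112.6 CPM in WT and 112.1 and 138.9 CPM in Sphk2 KO. Its groups overlapped, and the log2 fold change was 0.35 (SE 0.189, 95% interval -0.08 to 0.79, edgeR adjusted p = 0.542). The value was 0.15 when WT replicate 1 was left out and 0.59 when WT replicate 2 was, and that of Slc44a2 was then 0.02 and 0.35.

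Among the kinases, which carry out the first step on choline or ethanolamine, no gene passed the test. Chka, the main choline kinase here, lay at 45.8 and 51.3 CPM in WT and 50.4 and 42.7 CPM in Sphk2 KO. The groups overlapped, and its 95% interval ran from -0.43 to 0.30 on the log2 scale. Chkb, the second choline kinase, had 47 to 79 counts in the libraries, with a log2 fold change of 0.15 (SE 0.354). Its value is uncertain, because 50.7% of its exon bases overlap Gm44502 on the same strand. Etnk1, an ethanolamine kinase and per kilobase the most abundant of these kinases, lay at 125.4 and 118.1 CPM in WT and 110.4 and 106.8 CPM in Sphk2 KO. Both Sphk2 KO values were the lower ones, by a log2 fold change of -0.17 (SE 0.143, edgeR adjusted p = 0.685).

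Pcyt1a encodes the cytidylyl transferase that limits the rate of phosphatidylcholine synthesis. It lay at 92.9 and 124.0 CPM in WT and 130.3 and 140.0 CPM in Sphk2 KO, that is 108.4 ± 22 and 135.1 ± 6.8 CPM (mean ± SD, n = 2 each). Both Sphk2 KO libraries were higher than WT, and WT replicate 1 stood apart below the other 3. The 95% interval of the fold, Sphk2 KO over WT, was 0.94 to 1.65, and the log2 fold change of 0.32 became 0.11 when WT replicate 1 was left out and 0.56 when WT replicate 2 was. Pcyt1b, the second form, had 11 to 18 counts in WT libraries and 6 to 22 in the Sphk2 KO libraries. Pcyt2, which does the same step for ethanolamine, gave -0.05 (SE 0.215).

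The final transferases did not pass either. Cept1 lay at 52.0 and 56.9 CPM in WT and 59.9 and 62.4 CPM in Sphk2 KO, with separate groups and a log2 fold change of 0.17 (SE 0.143, edgeR adjusted p = 0.683). This direction depends on the scaling, since the value was -0.00 with library size alone. On the opposite strand, Dennd2d and Dram2 overlap 24.9% of its exon bases. The library kit keeps the strand, but how the counting used it is unknown here. Chpt1 gave -0.42 (SE 0.334) and Selenoi -0.10 (SE 0.204), both with overlapping groups.

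The lowest fold change was that of Gpam, 1 of the genes for the acylation of glycerol 3-phosphate. Its mean of 0.611 CPM per kilobase was below those of Gpat3 (7.18) and Gpat4 (2.91), genes outside the set for the same step. Gpat2 was lower still (0.466). The log2 fold changes of Gpat3, Gpat4 and Gpat2 were 0.46, -0.19 and -0.09. Gpam, a mitochondrial enzyme of the first acylation, had WT counts of 109 and 71 and Sphk2 KO counts of 52 and 37, or 5.79 and 5.13 against 3.71 and 1.65 CPM. Both Sphk2 KO libraries were below both WT libraries, with Sphk2 KO replicate 2 lowest. The log2 fold change was -1.07 (SE 0.408, 95% interval -2.00 to -0.13), with an unadjusted p of 0.0302 that did not survive adjustment (edgeR adjusted p = 0.434). It was -1.73 without Sphk2 KO replicate 1 (edgeR adjusted p = 0.0186) and -0.55 without Sphk2 KO replicate 2, and the adjusted p ran from 0.00201 to 1 over the alternatives tried.

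The enzymes of the second acylation, to phosphatidic acid, went both ways without passing the test. Agpat2, the most abundant, lay at 40.9 and 38.2 CPM in WT and 45.4 and 44.6 CPM in Sphk2 KO, with separate groups and a log2 fold change of 0.19 (SE 0.149). Agpat3 lay at 20.8 and 18.0 CPM in WT and 16.1 and 11.6 CPM in Sphk2 KO, also with separate groups but in the other direction (-0.50, SE 0.227, edgeR adjusted p = 0.484), and gave -0.26 when Sphk2 KO replicate 2 was left out and -0.75 when replicate 1 was. Agpat4 had 11 and 6.86 CPM in WT and 6.92 and 6.36 CPM in Sphk2 KO. Only WT replicate 1 stood out there, and the groups overlapped (-0.44, SE 0.294, and -0.06 when that library was left out or -0.71 when WT replicate 2 was). Agpat1 (0.07) and Agpat5 (0.17) had overlapping groups.

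The lipins, which turn phosphatidic acid into diacylglycerol, were unlike in level. Lpin2 lay at 167.5 and 241.4 CPM in WT and 222.1 and 280.7 CPM in Sphk2 KO, with overlapping groups and a log2 fold change of 0.30 (SE 0.221). Lpin1 lay at 7.54 and 6.72 CPM in WT and 6.71 and 4.58 CPM in Sphk2 KO, where WT replicate 2 and Sphk2 KO replicate 1 could hardly be told apart (-0.35, SE 0.292, edgeR adjusted p = 0.679). Lpin2 gave 0.05 when WT replicate 1 was left out and 0.60 when WT replicate 2 was, and Lpin1 gave -0.08 when Sphk2 KO replicate 2 was left out and -0.64 when replicate 1 was.

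Of the remodelling enzymes, Lpcat2, which acylates lysophosphatidylcholine and also makes platelet-activating factor, lay at 229.9 and 316.7 CPM in WT and 307.1 and 364.5 CPM in Sphk2 KO. The groups overlapped, and its log2 fold change was 0.30 (SE 0.212, edgeR adjusted p = 0.636), with 0.07 when WT replicate 1 was left out and 0.56 when WT replicate 2 was. Lpcat3, which places polyunsaturated chains into phosphatidylcholine, lay at 29.5 and 26.5 CPM in WT and 24.3 and 27.8 CPM in Sphk2 KO, with overlapping groups (-0.11, SE 0.174). Of the other members of this group, Lpcat4 had the one separate pair of groups, at 28.6 and 29.0 CPM in WT and 38.1 and 32.3 CPM in Sphk2 KO (0.29, SE 0.167, edgeR adjusted p = 0.564). Mboat7, which places arachidonate into phosphatidylinositol, gave 0.14 (SE 0.20), Lpgat1 0.03 and Lpcat1, the form known from lung surfactant, -0.28. Mboat7 and Ptdss2 are the 2 genes of the set on chromosome 7, which also carries Sphk2.

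The genes around phosphatidylserine differed little in value. Ptdss1 lay at 27 and 26.5 CPM in WT and 25.9 and 23.8 CPM in Sphk2 KO (-0.11, SE 0.168), with the Sphk2 KO values just under those of WT. Ptdss2 gave 0.12. Pisd, which decarboxylates phosphatidylserine to phosphatidylethanolamine in mitochondria, lay between 26.2 and 27.9 CPM in all 4 libraries (0.03, SE 0.164). The value of Pisd is uncertain, since 22.8% of the 75-base sequences of its longest transcript also occur in other genes, among them the pseudogenes Pisd-ps1 and Pisd-ps2.

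In the branch to CDP-diacylglycerol and cardiolipin, 2 abundant genes had estimates above 0 and 2 scarce ones below, and none passed the test. Cds2 lay at 480.4 and 652.9 CPM in WT and 664.7 and 750.6 CPM in Sphk2 KO (0.32, SE 0.232, edgeR adjusted p = 0.640). Its groups were separate, with WT replicate 1 well below the rest, and the value was 0.10 when that library was left out and 0.58 when WT replicate 2 was. Cds1 lay at 4.57 and 3.18 CPM in WT and 2.92 and 2.14 CPM in Sphk2 KO (-0.64, SE 0.354, and -0.36 when WT replicate 1 was left out). Crls1, the cardiolipin synthase, had WT counts of 84 and 36 and Sphk2 KO counts of 26 and 43, or 4.46 and 2.60 against 1.85 and 1.91 CPM. All 4 values were low, and WT replicate 1 was the highest by far. The log2 fold change of Crls1 was -0.92 (SE 0.380, unadjusted p = 0.0416, edgeR adjusted p = 0.455), and -0.47 without WT replicate 1. Pgs1, which makes phosphatidylglycerol phosphate earlier in the route, had overlapping groups (0.13, SE 0.199). It lay at 198.5 and 272.1 CPM in WT and 245.1 and 270.4 CPM in Sphk2 KO. Both Sphk2 KO values were above WT replicate 1 and below WT replicate 2.

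In the main fit the sign of the difference went with the level of the gene. Of the 11 genes averaging 50 CPM or more, 10 had a log2 fold change above 0, with a median of 0.18, and among all 3423 tested genes of that level 77.4% did, with a median of 0.15. Of the 9 genes with a mean under 10 CPM, 7 were below 0, with a median of -0.42, against 59.4% and a median of -0.12 among all 8711 such genes. Spearman's rho between mean CPM and log2 fold change was 0.73 over the 32 genes and 0.22 over all tested genes, both as descriptions across genes that share the same libraries. These signs depend on the libraries and the scaling. Of the 32 genes, 14 were above 0 without WT replicate 1 and 8 with library size alone, against 17. Over all tested genes the shares above 0 were 49.7% and 29.9%, against 49.9%. In Mboat7 and Pgs1, both above 50 CPM, WT replicate 2 lay above both Sphk2 KO values. The summed level of the 33 genes was 2574 and 3183 CPM in WT and 3154 and 3409 CPM in Sphk2 KO, so WT replicate 1 was the low library and the groups overlapped. The summed neutrophil markers were likewise lowest and the summed monocyte markers highest in WT replicate 1. Camp, Ltf and Ngp were not lowest there, with Camp at 456.4 CPM and at 324.7 CPM in WT replicate 2. Csf1r was lowest there, at 456.8 CPM, and Cx3cr1 was not highest. The other listed markers of both types followed the sums. The part of these markers in the differences was not tested.

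**Figure D4:**
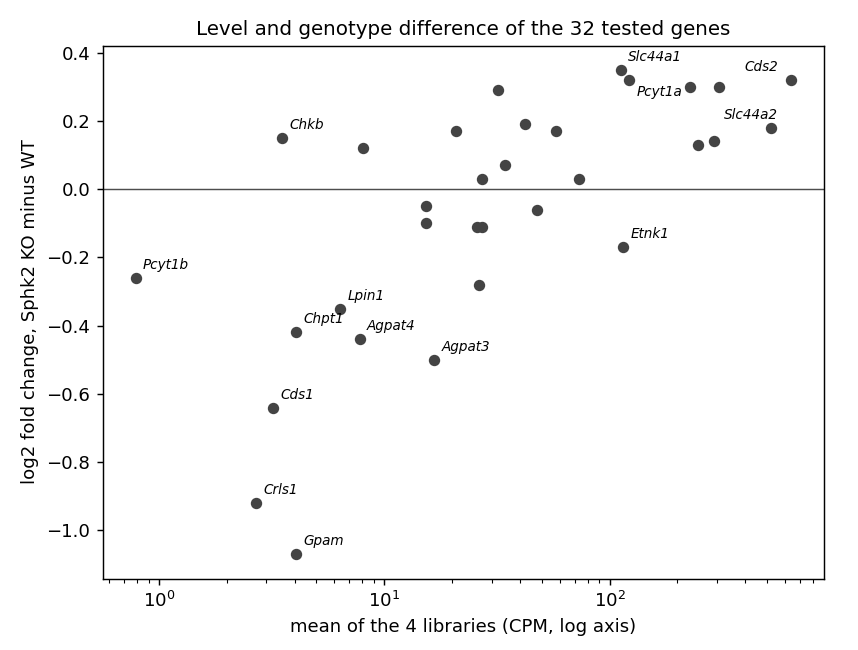
Log2 fold change (Sphk2 KO minus WT, y axis) against the mean CPM of the 4 libraries (x axis, log) for the 32 tested genes, with some named. The genes at 50 CPM or more lie mostly above 0 and those under 10 CPM mostly below it, with Chkb, Ptdss2 and Etnk1 among the exceptions.

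**Figure D5:**
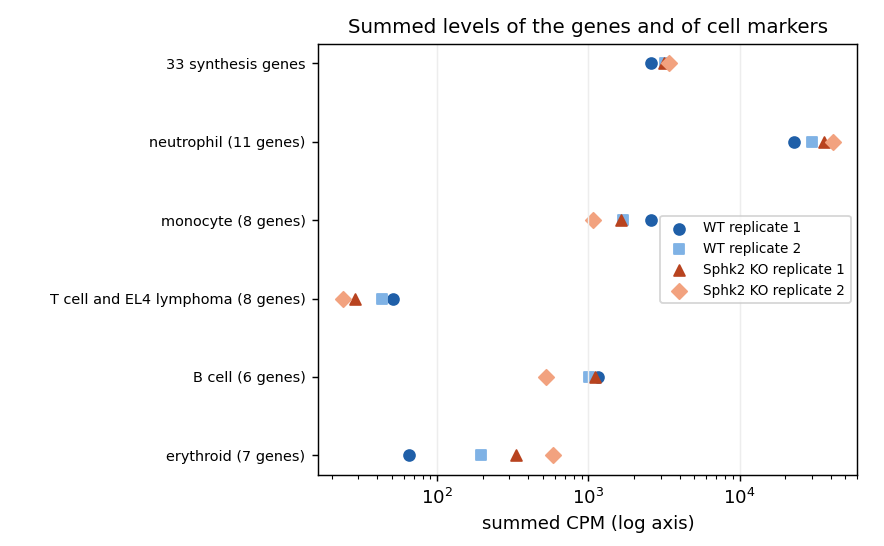
Summed CPM (x axis, log) of the 33 synthesis genes and of 5 lists of cell markers (y axis) in each library. The neutrophil sum runs from 22999 to 41394 CPM and the monocyte sum from 2580 down to 1073 CPM, both with WT replicate 1 and Sphk2 KO replicate 2 at the ends.

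Outside the 33 genes, 60 others of glycerophospholipid metabolism were examined, of which 48 passed the filter. None was called (edgeR), while 0 were higher (3.06% of all tested genes) and 6, or 12.5%, lower (7.47% of all) at an unadjusted p under 0.05. The median log2 fold change was -0.02. Both Sphk2 KO libraries lay above both WT libraries in 14 of the 48 (20.4% of all tested genes) and below in 13 (22.7%). Among those averaging 5 CPM or more, Gpat3, an acyltransferase of the endoplasmic reticulum that does the same step as Gpam, had the highest fold change, at 15.8 and 26.7 CPM in WT and 27 and 31.0 CPM in Sphk2 KO (0.46, SE 0.253, edgeR adjusted p = 0.548). Lclat1, a lysocardiolipin acyltransferase, was the lowest of these, at 9.61 and 9.18 CPM in WT and 6.71 and 4.14 CPM in Sphk2 KO (-0.81, SE 0.299, edgeR adjusted p = 0.425). Next among the highest were Pla2g7, which hydrolyses platelet-activating factor (0.38, SE 0.246), and Pitpnc1, a phosphatidylinositol transfer protein (0.30, SE 0.146). Next among the lowest were Plbd2 (-0.75, SE 0.320) and the phospholipase Ddhd1 (-0.62, SE 0.213), the latter at 66 and 43.9 CPM in WT and 38.7 and 33 CPM in Sphk2 KO. Gpcpd1, which releases choline from glycerophosphocholine, was abundant, at 927.5 and 1314 CPM in WT and 1166 and 1553 CPM in Sphk2 KO (0.28, SE 0.289).

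Further genes of cardiolipin synthesis are named here after their values were seen, and no pattern is read from them. Tamm41, the mitochondrial CDP-diacylglycerol synthase, lay at 4.62 and 3.25 CPM in WT and 2.64 and 1.91 CPM in Sphk2 KO (-0.81, SE 0.357, edgeR adjusted p = 0.472). Ptpmt1, the phosphatase between Pgs1 and Crls1, lay at 2.39 and 1.52 CPM in WT and 0.856 and 0.890 CPM in Sphk2 KO (-1.17, SE 0.422, edgeR adjusted p = 0.425). Tafazzin, which remodels finished cardiolipin, lay at 42.3 and 51.4 CPM in WT and 54.2 and 51.4 CPM in Sphk2 KO (0.17, SE 0.159). None of the 5 genes of this route, Pgs1 and Crls1 included, passed the test.

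Acaca, which encodes acetyl-CoA carboxylase 1, the source of the malonyl-CoA from which fatty acids for these lipids are built, lay at 32.1 and 19.9 CPM in WT and 22.7 and 13.6 CPM in Sphk2 KO. The groups overlapped (log2 fold change -0.53, SE 0.303, edgeR adjusted p = 0.557). These values are transcript levels, and neither enzyme activity nor lipid was measured in them.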

How the data were processed

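Poly(A) RNA from 2 WT and 2 Sphk2 KO libraries was sequenced. The deposited values are raw counts per gene ID, and the submitters' processing notes name Trim Galore, STAR, featureCounts and DESeq2 with GRCm39. Not given in the sources used here: versions, annotation, strand setting and treatment of multi-mapped reads. Replicates were distinct libraries, since their chi-square per degree of freedom was 26.1 for the WT pair and 17 for the Sphk2 KO pair.

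Counts were tested in edgeR 4.0.16 (R 4.3.3) over all 4 libraries with filterByExpr, TMM, glmQLFit, glmQLFTest, a model of genotype alone and Benjamini-Hochberg adjustment over all genes. The SE is the log2 fold change over the square root of F. CPM per kilobase uses the union of exons in GENCODE M21 (GRCm38), matched by gene ID, so it is approximate. Symbols matched 52083 of 55416 IDs. The code was tested on simulated data. Alternatives used DESeq2 1.42.0, limma-voom (limma 3.58.1), RLE or library size alone, other filters, robust fitting, a replicate block and each library left out.

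The members, lists and tests were chosen with earlier results of these data known. Values were named for genes called or at an unadjusted p under 0.05, the most abundant of each role, the 5 highest and 5 lowest fold changes, and Pcyt1a, Chka, Pemt, Lpcat2, Lpcat3, Gpam and Lpin1. Of other pathway genes the rule took the 3 highest and 3 lowest with at least 5 CPM. Lpcat4, Mboat7, Pisd, Gpcpd1 and the cardiolipin genes among others were named beyond it, after their values were seen.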

Additional observations from a re-analysis of the deposited data

How the results depend on the processing

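Over 12 alternatives, 207 of 216 fold changes of the 18 tested named genes kept their direction and their side of the threshold. The sign turned for Chka when WT replicate 2 (0.04) or Sphk2 KO replicate 2 (0.06) was left out, in a range of -0.19 to 0.06 over the libraries, and for Cept1 with library size alone (-0.00). The median of the tested genes stayed between -0.14 and 0.06. The number of these genes called was 0 with DESeq2, limma-voom, RLE, library size alone, both other filters and robust fitting, and 0 to 1 with a library left out. Among the other pathway genes it was 0 to 3 with a library left out, and among all genes 54 to 1061. All genes gave 76 calls with DESeq2 and 615 without the count filter, against 18. Genes with both Sphk2 KO libraries above WT numbered 2 and those below 12 with library size alone, and 8 to 13 and 10 to 14 with a library left out, where fewer libraries make separate groups more frequent. The shares of all genes with separate groups are not given for these settings.

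The equal replicate numbers are not stated to mark a shared batch. Across genes, replicate 1 minus replicate 2 correlated at 0.438 between the genotypes. With the replicate block, 2637 genes were called, among them 9 other pathway genes and 5 of these genes: Agpat3 (-0.50), Crls1 (-0.86) and Gpam (-1.10) lower, and Pcyt1a (0.33) and Slc44a1 (0.36) higher (edgeR adjusted p 0.00201 to 0.043). That is 15.6% of the tested genes described here, against 15.9% of all genes. This block leaves 1 residual degree of freedom. Depth limits the scarce genes: Pcyt1b, with 6 to 22 counts in a library, has the largest SE, 0.513.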

Other observations

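Part of the spread among these genes lay between replicates of 1 genotype. From WT replicate 1 to WT replicate 2 the log2 level of Lpin2 differed by 0.53, that of Lpcat2 by 0.46, that of Pgs1 by 0.45 and that of Mboat7 by 0.44, each more than the genotype difference of the same gene. Crls1 differed by -0.75 and Agpat4 by -0.67 in the same pair. Between the Sphk2 KO replicates Gpam differed by -1.12, against a genotype difference of -1.07. A genotype difference sets 2 libraries against 2, and so varies less than a difference of single libraries.

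In choline handling outside the set, the neuronal choline transporter Slc5a7 had 0 counts in all 4 libraries, and so did the third lipin, Lpin3. This allows levels of up to 0.122 to 0.213 CPM in a library (3 counts by library size before TMM scaling, counting error only).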
